A study of Mus musculus with 6 samples.

Results

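The epithelial sodium channel and the aquaporins carry sodium and water across the membranes of kidney tubule cells. 9 of their genes were examined in RNA sequencing of primary cultured mouse renal tubule epithelial cells (RTECs), out of 46517 genes in the count tables. They are the channel subunit genes Scnn1a, Scnn1b and Scnn1g and the water channel genes Aqp1, Aqp2, Aqp3, Aqp4, Aqp5 and Aqp11, and they were taken by gene symbol, as a set put together with earlier results of these data known. 3 control (CTL) cultures were compared with 3 cultures given 50 ng/ml transforming growth factor β1 (TGF-β1) for 24 h. All cultures came from kidneys of wild type FvB mice labelled as 4 to 6 weeks old, and the medium contained no serum for 24 h before the treatment. The cells were a filtered collagenase digest of kidney grown with epidermal growth factor, so a culture can hold cells of several segments. The sample labels do not say whether the replicates came from separate animals, and p-values therefore measure the spread between these cultures only. In such bulk cultures fewer cells of a type and less of a transcript per cell cannot be told apart.

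The sodium channel is built from α, β and γ subunits, encoded by Scnn1a, Scnn1b and Scnn1g. It sits in the apical membrane of the late distal tubule and collecting duct, where it is the step of sodium uptake that aldosterone controls. Aquaporins are tetrameric water pores. AQP1 is the pore of the proximal tubule and the thin descending limb of Henle's loop, and of many endothelial cells and red cells. AQP2 is the pore that vasopressin inserts into the apical membrane of collecting duct principal cells, and AQP3 and AQP4 let the water leave through the basolateral membrane of the same cells. AQP5 is best known from salivary, tear and airway glands. AQP11 lies in intracellular membranes of the proximal tubule, and mice without it develop kidney cysts.

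Positions are those of GENCODE M21 on GRCm38, and identifiers are those of the count tables. Scnn1a (ENSMUSG00000030340.15) is on chromosome 6 from 125320659 to 125344943 and Aqp1 (ENSMUSG00000004655.5) on the same chromosome from 55336432 to 55348555, both on the plus strand. Scnn1g (ENSMUSG00000000216.8, 121734479 to 121768475) and Scnn1b (ENSMUSG00000030873.8, 121865038 to 121918514) are neighbours on the plus strand of chromosome 7, with 96.6 kb between them. Aqp11 (ENSMUSG00000042797.8) is on the minus strand of chromosome 7 from 97724006 to 97738289. Aqp2 (ENSMUSG00000023013.4, 99579055 to 99584547) and Aqp5 (ENSMUSG00000044217.15, 99590782 to 99594829) lie 6.2 kb apart on the plus strand of chromosome 15 and Aqp3 (ENSMUSG00000028435.8) lies on the minus strand of chromosome 4 from 41092722 to 41098183. No exon of the 9 genes overlapped an exon of another annotated gene, with 0 shared bases for each. Upstream sequences from RefSeq (GRCm38.p6) were at hand for 7 of the 9 genes, and not for Scnn1a and Aqp4. 3 of them are shown because they belong to the neighbouring β and γ subunit genes and to Aqp1, whose transcripts are compared below. Each runs over the 250 bases before the RefSeq transcription start on the plus strand: chr7:121864788-121865037 for Scnn1b, chr7:121734229-121734478 for Scnn1g and chr6:55336049-55336298 for Aqp1. Capitals mark short motifs searched on both strands.
Scnn1b upstream: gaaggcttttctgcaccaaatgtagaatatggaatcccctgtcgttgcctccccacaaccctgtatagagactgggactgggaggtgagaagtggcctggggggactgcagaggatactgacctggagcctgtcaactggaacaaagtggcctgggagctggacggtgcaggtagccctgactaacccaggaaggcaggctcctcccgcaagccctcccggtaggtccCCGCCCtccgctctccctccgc
Scnn1g upstream: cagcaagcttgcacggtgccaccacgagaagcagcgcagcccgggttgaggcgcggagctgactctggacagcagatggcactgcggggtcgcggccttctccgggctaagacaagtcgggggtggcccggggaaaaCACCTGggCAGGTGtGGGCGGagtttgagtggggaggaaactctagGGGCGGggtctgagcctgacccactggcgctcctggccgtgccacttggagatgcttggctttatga
Aqp1 upstream: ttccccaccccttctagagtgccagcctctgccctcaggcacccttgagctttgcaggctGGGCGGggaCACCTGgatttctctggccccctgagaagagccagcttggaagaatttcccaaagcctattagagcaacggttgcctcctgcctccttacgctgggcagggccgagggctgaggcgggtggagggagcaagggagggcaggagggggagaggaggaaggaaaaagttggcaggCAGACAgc
For SMAD factors the motif searched was CAGACA. For Snail factors it was the E-box CAGGTG. The steroid receptor motif was AGAACA, part of their full element. The motif of cAMP-responsive factors was TGACG, likewise part of a longer element. The general promoter motifs searched were GGGCGG, which is the GC box, and finally the TATA box, spelled TATAAA. The Aqp1 window held CAGACA, starting 8 bases before the RefSeq transcription start, and 17.1% of 32851 windows of the same length held it. The GENCODE start of Aqp1, at 55336432, lies further downstream, so the distance depends on the annotation. CAGGTG, found in 17.2% of windows, was present in both orientations in the Scnn1g window and in 1 orientation in the Aqp1 window. GGGCGG, found in 32.7% of windows, was in all 3 windows. The steroid receptor, cAMP and TATA motifs, found in 16.1%, 17.8% and 12.4% of windows, were in none of the 3. These matches are descriptions of the letters and were not tested for binding.

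The libraries held 28313080 to 34183497 reads on genes, so that 3 reads corresponded to 0.0878 to 0.106 CPM (counts scaled to an equal total in each library). Normalized counts are given after TMM scaling to the geometric mean library size. Among genes known to respond to TGF-β1, used to check the treatment, Smad7 and Skil rose, with log2 fold changes of 0.55 and 0.76, and Ccn2 and Tgfbi did not pass the test (0.18 and -0.18). The replicate 2 cultures of both groups stood apart. Their fibroblast markers summed to 66970 and 76050 normalized counts against 24150 to 32720 in the other cultures. Col1a1 held most of these 2 sums, with 46370 in CTL and 58090 after TGF-β1. Col3a1, Pdgfrb and Dcn were also highest in replicate 2 of both groups. Pdgfra was lowest there, at 27.9 and 20.7, and Lum had 0 reads in CTL replicate 2 against 24 in CTL replicate 3. The Y-linked transcripts Ddx3y, Eif2s3y, Kdm5d and Uty summed to 142 to 151 CPM in the replicate 2 cultures and to at most 0.172 CPM elsewhere, although the methods describe male mice. Xist, a transcript of female cells, was at 207 to 237 CPM in them and at 516 to 634 CPM elsewhere. The replicate 2 cultures thus held cells of a male donor that the other cultures lacked. Whether replicates 1 and 3 came from separate animals is not known. Values without both replicate 2 cultures are given for the 3 subunits, Aqp1 and Aqp11, and for pathway genes described below whose call changed without them.

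With TGF-β1, Aqp1 and Scnn1a fell, and 0 of the 9 genes rose. Only 4 genes, Scnn1a, Scnn1g, Aqp1 and Aqp11, had enough reads to be tested. Of these, 2 were lower at an adjusted p-value under 0.05 (edgeR), in a comparison that called 11.7% of 15862 genes in either direction and 6.69% lower. With the replicate number of the labels as a block, 3 were lower, where 34.2% of all genes were called and 19.1% were lower. The groups did not overlap for 3 of the 4, Scnn1a, Scnn1g and Aqp1, against 35.1% of all genes in either direction and 18.0% with lower values after TGF-β1. Scnn1g passed the filter on low counts through its CTL cultures only, so these counts describe the genes one by one and are no measure of the family. Aqp2, Aqp3, Aqp4, Aqp5 and Scnn1b stayed below the filter, which required about 0.313 CPM in 3 cultures.

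**Figure D1:**
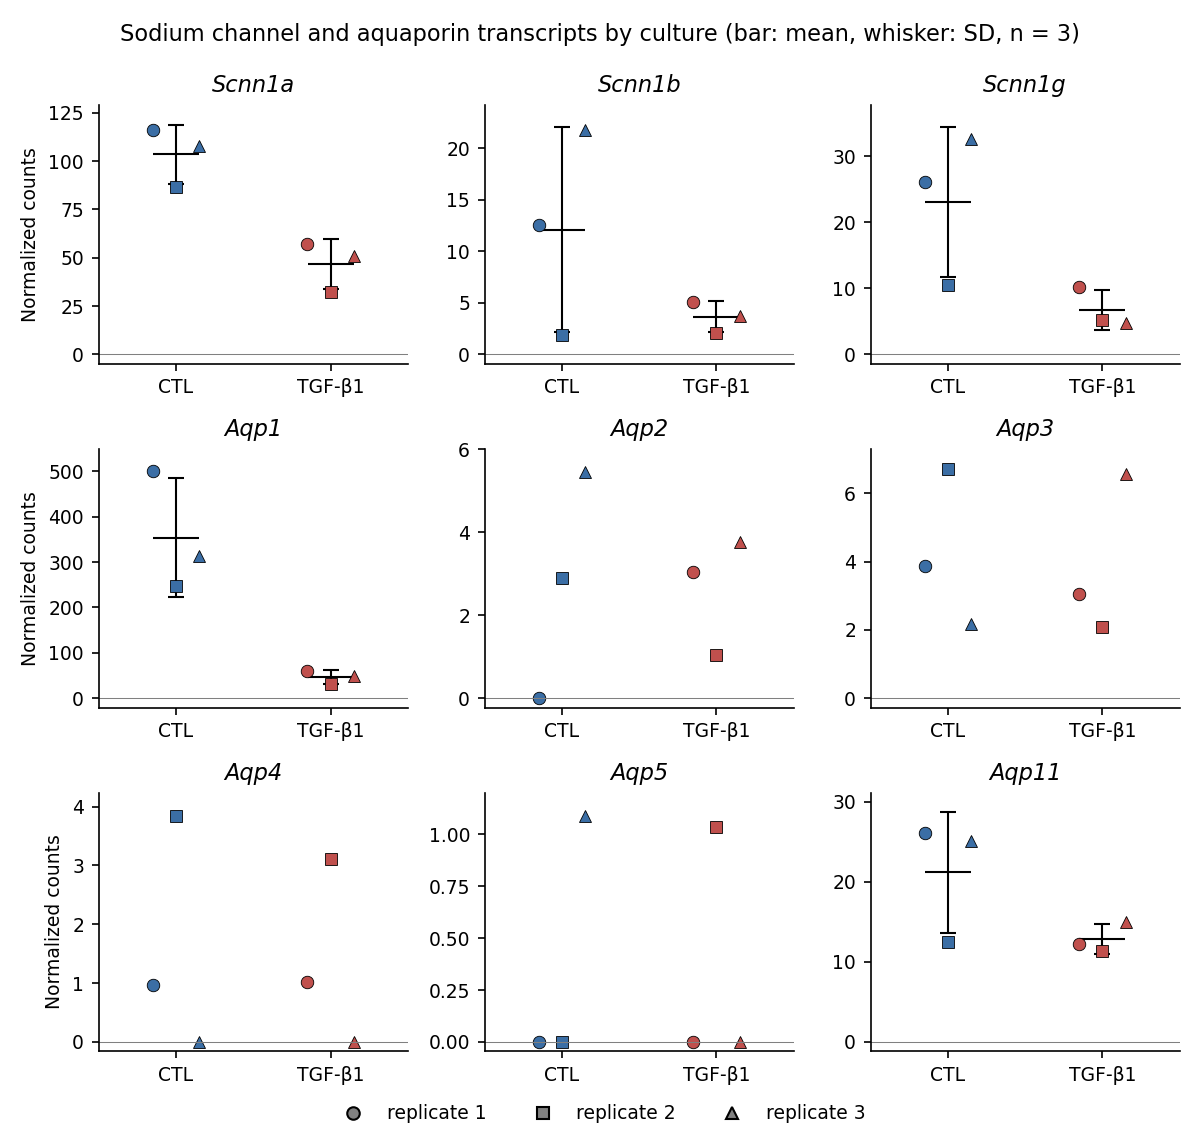
Normalized counts (vertical axes, each starting near 0) of the 9 transcripts in 3 CTL (blue) and 3 TGF-β1–treated (red) cultures; symbols give the replicate number, and bars and whiskers the mean and SD, left out for the 4 aquaporins with at most 7 reads per library. Every TGF-β1 culture lies below every CTL culture for Scnn1a, Scnn1g and Aqp1, and the groups overlap in the other panels.

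Scnn1a, the subunit that the other two need to reach the membrane, had 116, 86.5 and 108 normalized counts in CTL replicates 1, 2 and 3 and 56.9, 32.1 and 50.7 after TGF-β1. All 3 treated cultures were below all CTL cultures, and replicate 2 was the lowest of both groups. The mean fell from 104 ± 15.2 to 46.6 ± 12.9 (SD, n = 3 each), a log2 change of -1.15 with a standard error of 0.25 (edgeR adjusted p = 0.0355). Replicates 1, 2 and 3 taken singly had log2 ratios of TGF-β1 to CTL of -1.02, -1.42 and -1.08. The call rested on all 6 cultures. When 1 culture was left out, the log2 fold change stayed between -1.31 and -0.95, while edgeR's adjusted p-value was 0.146, 0.0505 and 0.0826 without CTL replicates 1, 2 and 3 and 0.0808, 0.0513 and 0.0796 without TGF-β1 replicates 1, 2 and 3. Without both cultures of replicate 1, 2 or 3 it was 0.324, 0.0167 and 0.159.

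Scnn1g, the γ subunit, had 26.1, 10.6 and 32.7 normalized counts in CTL and 10.2, 5.18 and 4.69 after TGF-β1. The highest treated culture was just under the lowest CTL culture, which was replicate 2. The log2 fold change of -1.77 (standard error 0.53) did not pass the test (edgeR adjusted p = 0.0845). With the replicate block it was -1.77 (standard error 0.38) and was called (edgeR adjusted p = 0.00845), within a range of 0.0073 to 0.399 over 16 alternative fits. It was also called without CTL replicate 2 (-2.12, edgeR adjusted p = 0.0395) and without both replicate 2 cultures (-1.98, edgeR adjusted p = 0.0328). These calls carry the limit that Scnn1g reached the filter in its 3 CTL cultures and in 0 of the treated ones, so that a gene kept this way had to be lower after TGF-β1.

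Scnn1b, the β subunit, had 13, 2 and 20 reads in CTL replicates 1, 2 and 3 and 5, 2 and 4 reads after TGF-β1. In normalized counts these were 12.6, 1.92 and 21.8 against 5.08, 2.07 and 3.75. The 2 reads of each replicate 2 culture put the groups in overlap, and replicates 1 and 3 were lower after TGF-β1 within their pairs. In a fit with no filter beyond 1 read, the log2 fold change came to -1.67 with a standard error of 0.78 (edgeR adjusted p = 0.313). With the replicate block and no filter, a setting chosen after seeing the data, it was -1.68 (edgeR adjusted p = 0.0141), the lowest value in a range of 0.0141 to 0.436 over 7 alternative fits. Without both replicate 2 cultures it was -1.92 (edgeR adjusted p = 0.0567). Scnn1b reached the filter level in 2 CTL cultures and in 0 treated ones, so the limit given for Scnn1g holds here for the fits that used the filter.

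The proportions of the subunits were compared within libraries, as log2 ratios of counts per kb of exon, with two-sided exact permutation tests. The smallest p that 3 cultures against 3 allow is 0.1. Scnn1a exceeded Scnn1g by 1.81 ± 0.65 in CTL cultures and by 2.29 ± 0.49 in treated ones (SD, n = 3 each), a difference of 0.48 (exact permutation p = 0.4, adjusted p = 0.7 over 7 ratios). This difference was 0.95 without replicate 2 and -0.081 without replicate 3. Scnn1a exceeded Scnn1b by 2.89 ± 1.49 and 2.89 ± 0.16, with p = 1 in the exact permutation test. The near equality of these means rested on single replicates, since the difference was 0.761 without replicate 2 and -0.66 without replicate 3. The spread of the second ratio in CTL came with the 2 Scnn1b reads of replicate 2, where it was 4.53 against 2.51 and 1.63. With 3 cultures a group no ratio could reach the threshold, so these tests do not show whether the subunits differed in their response to TGF-β1. The α subunit exceeded both others per kb of exon in all 6 libraries.

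Aqp1 had the most reads of the 9 genes and the largest fitted change of the 4 tested. Its normalized counts were 500.3, 247 and 313 in CTL replicates 1, 2 and 3 and 59.9, 31.1 and 49.8 after TGF-β1. The lowest CTL culture was far above the highest treated one, and replicate 2 was again the lowest in both groups. The mean fell from 353 ± 131 to 46.9 ± 14.6 (SD, n = 3 each), a log2 change of -2.91 with a standard error of 0.36 (edgeR adjusted p = 0.00919). The log2 ratios within same-numbered pairs were -3.05, -2.97 and -2.64. With 1 culture left out the log2 fold change ran from -3.12 to -2.57, with edgeR adjusted p-values up to 0.0476. Without both replicate 2 cultures it was 0.00479. Without both replicate 1 cultures the log2 fold change was -2.79 with an adjusted p-value of 0.212, in a fit that called 0 of 15961 genes although 1938 had an unadjusted p-value under 0.05. Without both replicate 3 cultures the change was -3.03 (edgeR adjusted p = 0.0758).

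Aqp11, the intracellular aquaporin, had 26.1, 12.5 and 25.1 normalized counts in CTL and 12.2, 11.4 and 15.0 after TGF-β1. CTL replicate 2 lay among the treated cultures. The log2 fold change of -0.71 (standard error 0.35) did not pass (edgeR adjusted p = 0.238), nor did it without both replicate 2 cultures (-0.90, edgeR adjusted p = 0.107) or in any other of 17 alternative fits, where it ran from -0.98 to -0.49 with adjusted p-values of 0.0652 to 0.738. Relative to Aqp11 and per kb of exon, the log2 excess of Aqp1 was 5.88 ± 0.37 in CTL cultures and 3.63 ± 0.43 in treated ones (SD, n = 3 each). This ratio differed by -2.25 without overlap between the groups (exact permutation p = 0.1, the smallest possible, and adjusted p = 0.233 over 7 ratios).

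The collecting duct aquaporins were close to the limit of detection in both groups. Aqp2 had 0, 3 and 5 reads in CTL replicates 1, 2 and 3 and 3, 1 and 4 reads after TGF-β1. Aqp3 had 4, 7 and 2 reads in CTL and 3, 2 and 7 after TGF-β1. Aqp4 (ENSMUSG00000024411.9, chromosome 18 from 15389496 to 15410982, minus strand) had 1, 4 and 0 reads in CTL and 1, 3 and 0 after TGF-β1, with replicate 2 the highest in both groups. Aqp5 had 1 read in CTL replicate 3, 1 read in TGF-β1 replicate 2 and 0 reads in the other 4 libraries, where a count of 0 allows up to 3 reads, or 0.0878 to 0.0941 CPM. A change of these 4 transcripts with TGF-β1 was not detectable at this depth. The other aquaporin genes, from a list of 6, were as low: Mip, Aqp6 and Aqp12 had 0 reads in every library, and Aqp7, Aqp8 and Aqp9 stayed below the filter.

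**Figure D2:**
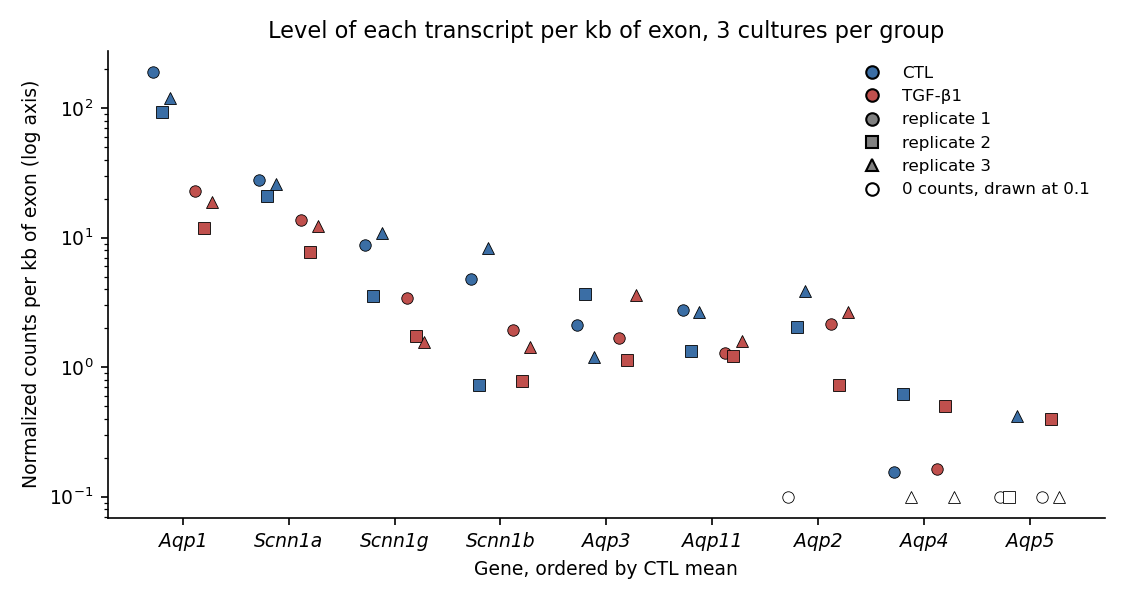
Normalized counts per kb of exon (log axis) of the 9 transcripts, ordered by their CTL mean, in 3 CTL (blue) and 3 TGF-β1 (red) cultures; symbols give the replicate number and open symbols libraries with 0 reads. Aqp1 and Scnn1a lead in both groups, and from Scnn1g onward neighbours overlap in CTL.

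Per kb of exon, the scale on which genes can be compared, Aqp1 had the highest level in CTL, with 134.5 ± 50 normalized counts per kb (SD, n = 3). Scnn1a followed with 25.0 ± 3.7, Scnn1g with 7.73 ± 3.80 and Scnn1b with 4.59 ± 3.78. The first 2 steps of this order held in all 3 CTL libraries without overlap, whereas Scnn1g and Scnn1b overlapped. Aqp3, Aqp11 and Aqp2 had levels of 2.33, 2.25 and 1.96 and did not differ beyond their spread, and Aqp4 and Aqp5 had 0.257 and 0.14. After TGF-β1, Aqp1 had 17.9 ± 5.6 and Scnn1a 11.3 ± 3.1 normalized counts per kb, and their ranges overlapped, though Aqp1 was the higher of the pair in all 3 libraries. Scnn1g followed with 2.23 ± 1.01.

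Aqp1 was the only one of the 9 genes with a mean of at least 5 CPM (6.32 CPM), the level set for comparing patterns over the 6 cultures. Of 10910 other genes at that level, those with the profile most like it were Serpina10, Lbp and Mettl7a1. Their centred log2 profiles differed from that of Aqp1 by a root mean square of 0.19, 0.20 and 0.27, where the profile of Aqp1 itself spanned 3.46. Serpina10 encodes an inhibitor of coagulation proteases and Lbp the lipopolysaccharide-binding protein. This is a description over 6 cultures, without a test.

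The genes that control the sodium channel and the water channels were read from 7 lists with 65 genes, of which 52 were tested. Without the block 5 were higher and 8 lower with TGF-β1, and with the block 12 were higher and 26 lower, against 5.00% higher and 6.69% lower, and 15.1% and 19.1%, of all genes tested. Without both replicate 2 cultures and with the block, the counts were 12 and 25. The lists were fixed with earlier results of these data known, and their counts are descriptions.

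Of 14 genes for steroid control and turnover of the channel, 2 rose, 4 fell and 8 did not pass (median log2 fold change -0.10, against -0.0028 for all genes tested). Nr3c2, the mineralocorticoid receptor through which aldosterone acts, fell from 365 ± 22.6 to 143 ± 32.3 normalized counts (SD, n = 3 each), a log2 change of -1.35 with a standard error of 0.18 (edgeR adjusted p = 0.0102). Hsd11b2, the enzyme that protects this receptor from glucocorticoids, rose from 466 ± 185 to 1464 ± 460 (log2 fold change 1.66, standard error 0.37, edgeR adjusted p = 0.0415). Thus receptor and enzyme moved in opposite directions, without overlap between groups for either. Nedd4l, the ubiquitin ligase that removes the channel from the membrane, fell by 0.74 on the log2 scale, and Wnk4, a kinase of distal sodium transport, fell by 0.98 (edgeR adjusted p = 0.0173 and 0.00501). Oxsr1, a kinase downstream of the WNK kinases named after its value was seen because it completes the 4, fell by 0.21 (edgeR adjusted p = 0.031). Fkbp5, a glucocorticoid-induced gene, rose by 1.24 (edgeR adjusted p = 0.0166). Tsc22d3 and Per1, also glucocorticoid-induced, did not rise, with log2 fold changes of -0.18 and -0.12 (edgeR adjusted p = 0.323 and 0.251). Sgk1, the aldosterone-induced kinase that restrains Nedd4l, had 1584, 2186 and 1445 normalized counts in CTL and 2634, 4054 and 2348 after TGF-β1. The Sgk1 log2 fold change of 0.79 did not pass without the block (edgeR adjusted p = 0.101) and passed with it (adjusted p = 3.53e-05, in a range of 1.26e-05 to 0.477 over 17 alternative fits). Without both replicate 2 cultures and without the block it was 0.72 and passed (edgeR adjusted p = 0.0053). Of these calls Wnk4 held in all 6 fits that left out 1 culture. Nr3c2 lost its call without CTL replicate 1 (edgeR adjusted p = 0.0578). Nedd4l and Fkbp5 lost theirs without either replicate 1 culture (adjusted p up to 0.0858 and 0.0869), Hsd11b2 in 4 of the 6 fits (up to 0.158) and Oxsr1 in 5 (up to 0.135).

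**Figure D3:**
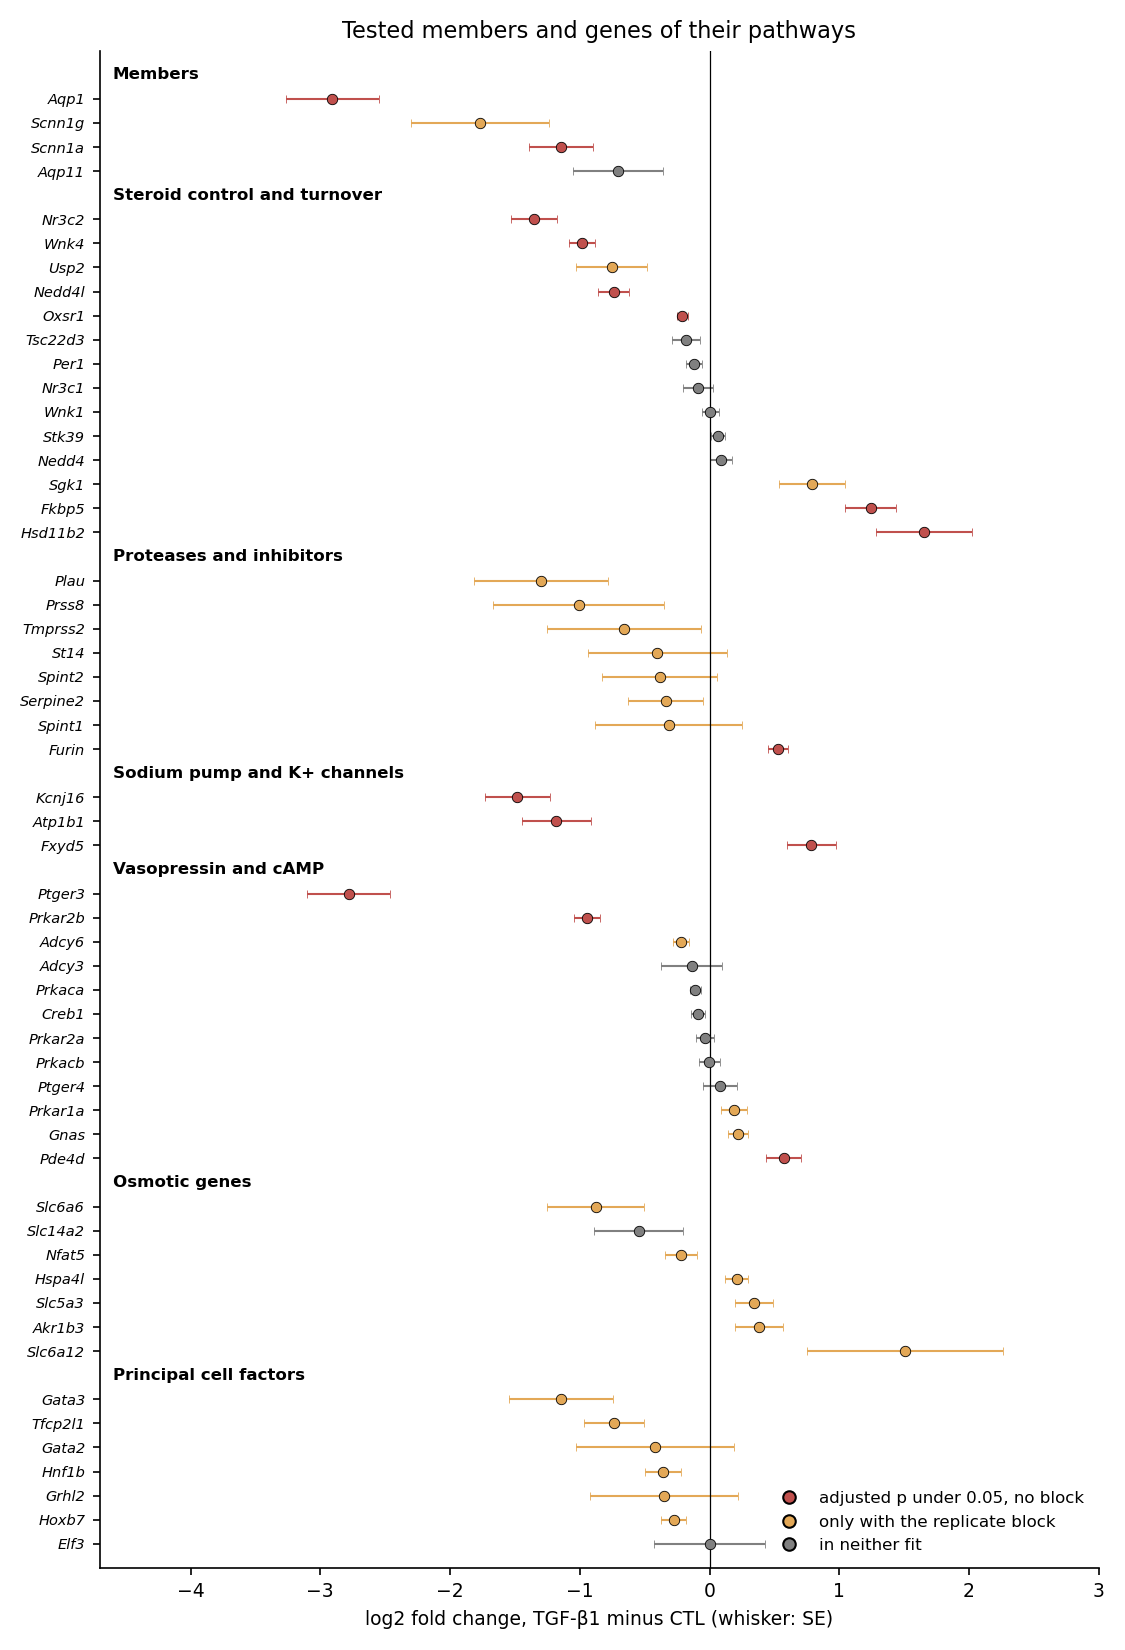
Log2 fold change (TGF-β1 minus CTL, horizontal axis; whiskers are standard errors of the fit without the block) of the 4 tested transcripts and tested genes of 6 lists; color shows whether a gene had an adjusted p-value under 0.05 without the block, only with it, or in neither fit. Aqp1 lies at -2.91 and Ptger3 at -2.78, and most proteases and protease inhibitors pass only with the block.

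Of 8 tested genes for proteases that act on the channel ectodomains or for inhibitors of such proteases, 1 rose, 0 fell and 7 did not pass without the block. The 0 lower calls in this list stood against 6.69% of all genes. With the block 7 were lower, both proteases and protease inhibitors, and 1 was higher, against 19.1% and 15.1% of all genes. Furin, which cleaves the α and γ subunits on their way to the surface, rose from 8919 ± 745 to 12860 ± 693 normalized counts (SD, n = 3 each; log2 fold change 0.53, edgeR adjusted p = 0.0131). Furin lost its call without either replicate 1 culture (edgeR adjusted p up to 0.0749). Prss8, the membrane protease prostasin, had 591, 233 and 945 normalized counts in CTL and 312, 107 and 457 after TGF-β1. The lowest culture was replicate 2 in both groups and the highest replicate 3, so that the groups overlapped while each pair fell. The Prss8 log2 fold change was -1.01 (edgeR adjusted p = 0.374 without the block and 6.36e-05 with it, in a range of 3.04e-05 to 0.728 over 17 fits). Plau, urokinase, had one of -1.30 (edgeR adjusted p = 0.165 without the block, 0.000127 with it, in a range of 1.43e-06 to 0.581), and without both replicate 2 cultures and the block one of -1.37 (edgeR adjusted p = 0.0452).

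Of the sodium pump, its FXYD partners and the potassium channels of sodium-reabsorbing cells, 4 of 8 genes were tested, of which 1 rose and 2 fell. Atp1b1, the β subunit of the pump, fell by 1.18 on the log2 scale, and Kcnj16, a basolateral potassium channel subunit, fell by 1.48 (edgeR adjusted p = 0.0418 and 0.0205). Fxyd5, a pump modulator, rose by 0.78 (edgeR adjusted p = 0.0487). Fxyd5 lost its call in all 6 fits that left out 1 culture (adjusted p 0.0581 to 0.145), Atp1b1 in 4 (up to 0.154) and Kcnj16 in 3 (up to 0.0912).

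Of 12 tested genes of the vasopressin and cAMP pathway, 1 rose and 2 fell. Avpr2, the V2 receptor that drives AQP2 to the membrane, was not tested, with 0, 2 and 2 reads in CTL and 0 in each TGF-β1 culture. Ptger3, a prostaglandin E2 receptor that lowers cAMP, fell from 176 ± 26 to 25.4 ± 10.5 normalized counts (SD, n = 3 each; log2 fold change -2.78, edgeR adjusted p = 0.00698). Prkar2b, a regulatory subunit of protein kinase A, fell by 0.94 (edgeR adjusted p = 0.00601), and both kept their call in all 6 fits that left out 1 culture. Pde4d, a phosphodiesterase that degrades cAMP, rose by 0.57 (edgeR adjusted p = 0.0432), and its adjusted p-value was up to 0.162 in 5 of those fits. Of the 7 osmotic genes around Nfat5, the factor induced by hypertonicity, 0 passed without the block, and 4 were higher and 2 lower with it. Slc5a3 and Akr1b3, which supply inositol and sorbitol, had log2 fold changes of 0.34 and 0.38, and Slc6a6, the taurine transporter, had -0.88. Of the 7 tested transcription factors of principal cells, 0 passed without the block and 6 were lower with it. Among all genes tested, 15.1% were higher and 19.1% lower with the block. Gata3 had 208, 167 and 125 normalized counts in CTL and 98.5, 93.2 and 35.7 after TGF-β1, without overlap (log2 fold change -1.14, edgeR adjusted p = 0.126 without the block, 0.00184 with it, in a range of 0.000944 to 0.482).

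The tubule label of the cultures was checked against 12 marker lists. Of the proximal tubule markers, Lrp2, the endocytic receptor megalin, had 2203 ± 196 normalized counts in CTL, Ggt1 642 ± 177, Cubn 142 ± 10.2, Hnf4a 29.0 ± 8.97 and Slc5a12 17.1 ± 11.1 (SD, n = 3), while Slc34a1, Slc5a2, Slc22a6 and Slc7a13 stayed below the filter. Of the 7 principal cell markers, which leave out the 9 genes themselves, Avpr2, Fxyd4, Elf5 and Kcnj1 were at most 4 reads in any library. The other 3, Hsd11b2, Gata3 and St6gal1, were tested. Intercalated cell markers summed to 12.0 to 17.3 normalized counts in CTL and 3.11 to 11.2 after TGF-β1, without overlap, and red cell markers to at most 7.63. No intercalated cell marker had enough reads to be tested. Atp6v0d2 held most of the CTL sums, with 11, 13 and 6 reads in CTL replicates 1, 2 and 3 and 4, 2 and 6 after TGF-β1.

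**Figure D4:**
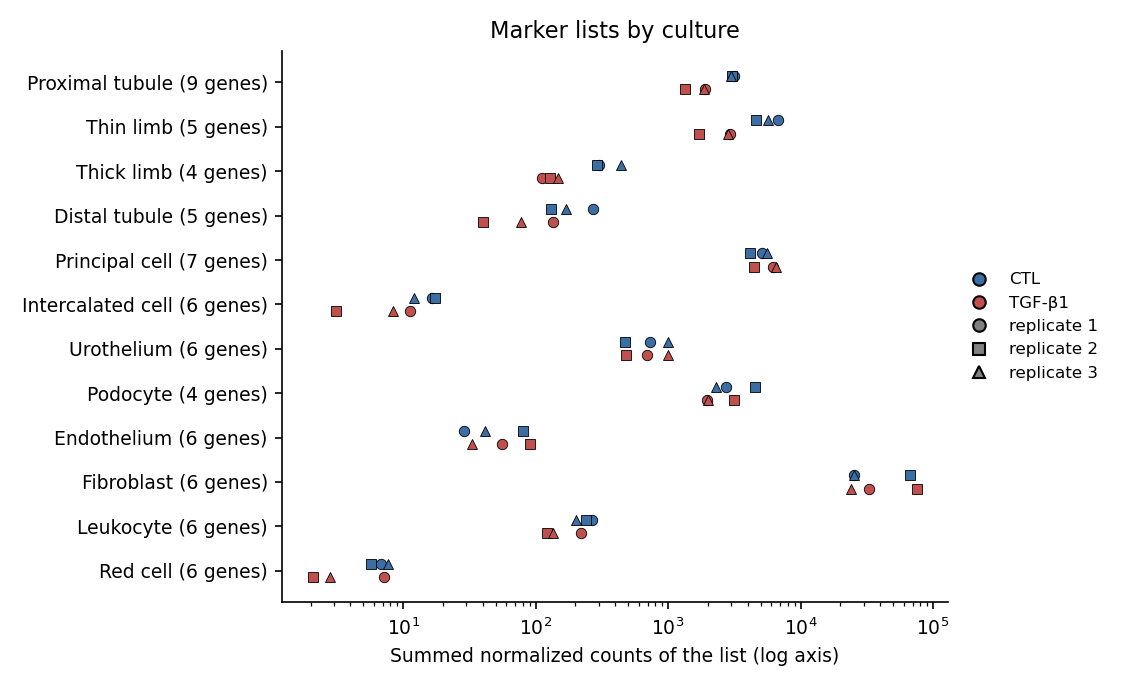
Summed normalized counts of 12 marker lists (log axis) in 3 CTL (blue) and 3 TGF-β1 (red) cultures; symbols give the replicate number. Proximal, thin limb, thick limb and intercalated sums are lower in every treated culture, the intercalated ones at few reads, and fibroblast sums are highest in replicate 2.

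Summed markers of the segments that carry Aqp1 were lower after TGF-β1, and 1 gene held most of each sum. Calls are those without the block unless stated. The 9 proximal tubule markers summed to 2970 to 3122 normalized counts in CTL and 1339 to 1892 after TGF-β1, with 1 of 5 tested lower, Lrp2 (log2 fold change -0.93, edgeR adjusted p = 0.0165). The log2 fold changes of the other 4 were -0.83 for Ggt1, 0.093 for Cubn, -1.53 for Hnf4a and -1.22 for Slc5a12. None of these passed without the block (edgeR adjusted p = 0.147, 0.698, 0.0591 and 0.189). Fitted with the block, 3 of the 5 were lower, against 19.1% of all genes. They were Lrp2, Ggt1 and Hnf4a (edgeR adjusted p = 0.00347, 0.000137 and 0.00448). The 5 thin limb markers summed to 4648 to 6799 and 1708 to 2932, with 1 of 3 lower, Bst1, which holds nearly all reads of that list. The 4 thick limb markers summed to 289 to 443 and 113 to 148, and 1 of 3 was lower. For the thin limb and the thick limb alike, 2 of 3 were lower with the block. Sums of the 5 distal tubule markers overlapped, at 130 to 272 and 40.4 to 136, and those of the principal cell list were 4148 to 5574 and 4445 to 6482. St6gal1 held most of that sum, with means of 4314 and 4143, while Hsd11b2 rose within it. The 6 endothelial markers summed to 29.0 to 80.8 normalized counts in CTL and 32.9 to 91.1 after TGF-β1, and 0 of 2 tested passed. This sum was below Aqp1 in every CTL culture, but after TGF-β1 it was 55.9, 91.1 and 32.9 in replicates 1, 2 and 3, against 59.9, 31.1 and 49.8 for Aqp1. Neither value was divided by exon length, so the 2 do not compare transcript levels. The leukocyte, podocyte and urothelium sums overlapped between groups, with 1 of 4, 0 of 2 and 0 of 3 tested markers lower. Under the block these became 1 of 4, 2 of 2 and 0 of 3. The 1 tested distal marker was also lower with the block, and the principal cell list then had 1 higher and 1 lower. The part of these shifts in the fall of Aqp1 and of Scnn1a was not tested.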

How the data were processed

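Poly(A) RNA of 3 CTL and 3 TGF-β1–treated RTEC cultures was sequenced as single-end reads. According to the methods and the submitters' processing notes, reads were trimmed with Trim Galore, aligned to GRCm38 with STAR 2.4.1d and counted per gene with HTSeq 0.6.1. The values deposited by the authors are raw read counts. Lines that name no gene (no feature, ambiguous, not unique) held 25.4% to 25.9% of reads and were left out. Symbols, positions and exon lengths came from GENCODE M21, which matched 46005 of 46517 identifiers. The annotation release behind the counts is not given in the sources used here.

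CTL and TGF-β1 were compared with the quasi-likelihood test of edgeR 4.0.16 under R 4.3.3 (filterByExpr, TMM, robust glmQLFit, glmQLFTest). The two-sided p-values were adjusted by Benjamini and Hochberg's method across 15862 genes, and 0.05 was the threshold. Standard errors came from the F statistic. Members and gene lists were chosen with earlier results of these data known. Named pathway genes were at most 4 per list and direction with a mean of at least 1 CPM that passed with or without the block, plus 8 fixed genes. Oxsr1, Tsc22d3 and Per1 were added after their values were seen. Some genes of the lists are counted but not reported here by name. Ratios used a pseudocount of 0.5 counts. Intervals and floors of 3 counts cover counting error only. The models were tested on simulated counts, where the share of false calls was above the threshold for each tool and highest for DESeq2. The simulated counts held no effect of the replicate number, so they do not show how the block performs in these data. Same-numbered cultures deviated together across genes (correlations 0.445, 0.738 and 0.648, against -0.688 to 0.289 for different numbers), and the replicate numbers of the labels were used as a block. The deviations were taken from group means, and replicate 2 stood apart in both groups. These correlations therefore do not settle how the cultures of replicates 1 and 3 are paired. Alternatives used DESeq2 1.42.0 and limma-voom 3.58.1, RLE or no composition scaling, other filters, the replicate block and left-out cultures. Figures used matplotlib 3.10.9.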

Additional observations from a re-analysis of the deposited data

How the results depend on the processing

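No cause of a change given here was tested, and cultures were left out without a block unless stated. Over all genes 793 were higher and 1061 lower. These counts became 2388 and 3037 with the replicate block, 127 and 192 at a threshold of 0.01, 1201 and 1521 in DESeq2, and 508 and 1467 without composition scaling. With cultures left out, 0 to 1084 genes were higher and 0 to 1290 lower. With the block and without both replicate 2 cultures, a setting chosen after seeing the data, 2288 were higher and 2718 lower. Of the 9 genes, 2 were lower, 0 to 3 were with cultures left out, 1 was at a threshold of 0.01, and 4 were (Scnn1a, Scnn1b, Scnn1g and Aqp1) with the block and without both replicate 2 cultures, a count to which Scnn1b and Scnn1g came through their CTL cultures only. Of the pathway genes, 5 were higher and 8 lower; the replicate block gave 12 and 26, the block without both replicate 2 cultures gave 12 and 25, a threshold of 0.01 gave 0 and 3, leaving out composition scaling gave 3 higher and no filter beyond 1 count gave 5 lower. With cultures left out 0 to 7 were higher and 0 to 11 lower. Exon length cancels in differences of log2 ratios. With the cultures of 1 replicate number left out, the difference ran from -0.66 to 0.761 for Scnn1a to Scnn1b, from -0.081 to 0.95 for Scnn1a to Scnn1g and from -1.77 to 0.756 for Aqp3 to Aqp2, which therefore had no steady direction. With single cultures left out, the log2 fold change of St14 (-0.40) ran from -0.79 to 0.028, the last without CTL replicate 3, and that of Gata2 (-0.42) from -1.10 to 0.25, the last without CTL replicate 2. Aqp1, Scnn1a, Scnn1g and Aqp11 kept their direction in every fit. At the depth of these libraries Aqp2, Aqp3, Aqp4 and Aqp5 could not be compared.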
